A study of Mus musculus with 2 samples.

Results

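A set of 10 genes that direct or mark cartilage and bone formation were followed in mouse embryonic fibroblasts (MEFs) with and without normal Dnmt1, the maintenance DNA methyltransferase. They are the transcription factors Sox9, Sox5, Sox6, Runx1, Runx2, Runx3 and Sp7, the cartilage proteoglycan gene Acan, and the bone genes Alpl and Ibsp. They were chosen by name, and each of the 10 had 1 entry among the 29126 entries of the deposited table. Their messenger RNA was measured by strand-specific sequencing in 1 Dnmt1+/+ library and 1 Dnmt1-/- library. In the cells called Dnmt1-/- both copies of Dnmt1 are a hypomorphic allele, and the MEFs of both genotypes are homozygous null for trp53, which encodes p53. Each genotype is 1 cell line, and the strain is given as unknown.

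Cartilage and bone cells come from mesenchymal progenitors. Sox9 commits these progenitors to cartilage, and Sox5 and Sox6, which bind DNA through the same kind of HMG domain, act with Sox9 to switch on cartilage matrix genes such as Acan. Runx2, and Sp7 acting after it, commit progenitors to bone, where Alpl and Ibsp serve mineralisation of the matrix. Runx1 and Runx3 share the DNA-binding Runt domain of Runx2 and are best known from blood cells, and both also act in the skeleton. All RUNX proteins bind DNA together with the partner protein made by Cbfb.

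Values are RPKM, reads on a transcript adjusted for transcript length and library size, so levels of different genes can be set side by side. A change is the difference of log2(RPKM + 0.1) between Dnmt1-/- and Dnmt1+/+, a scale on which differences between low values look smaller than they are. Calls were made on the 11244 genes that carried a symbol and the Cuffdiff status OK and reached 1 RPKM in either library, here called the genes kept, whose median change was -0.14. With 1 library per genotype there is no replicate check and no test, and the values describe these 2 libraries. Dnmt1 itself had 65.2 RPKM in the Dnmt1+/+ and 14.5 in the Dnmt1-/- library. The lines also differed in Xist, at 0.00648 and 37.0 RPKM, so genotype and cell line cannot be told apart. Of 12 fibroblast marker genes, 11 reached 1 RPKM in Dnmt1+/+ and 10 in Dnmt1-/-. Of the 11 kept, 2 were more than 2-fold higher (Pdgfra and S100a4) and 3 lower (Col1a2, Fn1 and Thy1). These are 18.2% and 27.3% of the 11, beside 8.47% and 10.9% of all genes kept. Thy1, at 4.84 and 0.129 RPKM, reached 1 RPKM in Dnmt1+/+ alone and so had to differ.

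The members whose RNA differed most were Runx3, Sox5 and Runx1, and their promoters are shown because the study concerns methylation of CpG dinucleotides. The sequences are the 250 bases upstream of each start in the RefSeq promoter table (GRCm38.p6), read 5′ to 3′ on the strand of the gene, with each CpG in capitals. Each was found at 1 place in the NCBI37 (mm9) genome. Runx1 and Runx3 each have a distal and a proximal promoter, and the Sox5 start listed lies inside the gene. The positions are chr4:134676310-134676559 and chr4:134708210-134708459 on the plus strand for Runx3, chr16:92826320-92826569 and chr16:92697575-92697824 on the minus strand for Runx1, and chr6:143895627-143895876 on the minus strand for Sox5.
Runx3 distal: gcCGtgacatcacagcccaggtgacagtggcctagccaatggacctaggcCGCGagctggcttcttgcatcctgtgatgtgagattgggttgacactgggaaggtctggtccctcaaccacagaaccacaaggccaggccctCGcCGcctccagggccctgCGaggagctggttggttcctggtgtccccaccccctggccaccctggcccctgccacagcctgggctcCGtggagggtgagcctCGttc
Runx3 proximal: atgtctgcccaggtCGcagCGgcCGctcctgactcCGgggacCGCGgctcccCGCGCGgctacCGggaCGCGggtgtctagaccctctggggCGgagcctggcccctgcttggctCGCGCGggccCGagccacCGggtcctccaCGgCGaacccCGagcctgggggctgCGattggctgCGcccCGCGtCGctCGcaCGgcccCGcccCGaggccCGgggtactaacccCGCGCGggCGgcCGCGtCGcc
Runx1 distal: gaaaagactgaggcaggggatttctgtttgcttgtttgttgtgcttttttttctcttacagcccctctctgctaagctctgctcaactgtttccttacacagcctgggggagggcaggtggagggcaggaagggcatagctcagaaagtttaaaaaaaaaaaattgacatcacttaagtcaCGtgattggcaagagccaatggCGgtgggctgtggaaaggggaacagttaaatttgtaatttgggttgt
Runx1 proximal: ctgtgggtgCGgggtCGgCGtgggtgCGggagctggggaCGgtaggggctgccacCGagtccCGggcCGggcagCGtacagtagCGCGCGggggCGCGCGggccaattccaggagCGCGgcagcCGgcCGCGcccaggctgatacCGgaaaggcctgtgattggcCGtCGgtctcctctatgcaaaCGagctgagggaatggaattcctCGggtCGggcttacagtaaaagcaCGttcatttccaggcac
Sox5 internal: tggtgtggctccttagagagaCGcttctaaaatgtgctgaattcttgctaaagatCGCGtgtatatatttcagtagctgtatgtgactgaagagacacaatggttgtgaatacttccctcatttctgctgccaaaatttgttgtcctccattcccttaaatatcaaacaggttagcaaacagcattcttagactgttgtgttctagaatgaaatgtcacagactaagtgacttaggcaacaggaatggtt

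In the full window of 300 bases, which adds the first 50 transcribed, the Runx3 proximal promoter held 45 CpGs and the distal one 8. The Runx1 proximal promoter held 35 and the distal one 2, and the Sox5 window held 3. The median over all 32851 windows of this length was 7 CpGs, and the upper quartile was 20, so both proximal RUNX promoters stood above the upper quartile and the Runx1 distal and Sox5 windows below the median. The genes with these proximal promoters differed in opposite directions, Runx3 being lower and Runx1 higher in Dnmt1-/-. The table gives 1 RPKM value per gene, and the share of RNA from each promoter was not analysed here. Of the other members, Runx2 had 2 CpGs in its 1 window and Ibsp 5. Acan had 31, the upstream window of Alpl 26 and its internal one 4, and the 6 windows of Sox6 held between 2 and 13. The RUNX motif TGTGGT, searched on both strands, occurred in 5 of the 16 windows of members, among them the distal promoters of Runx1 and Runx3 and the Runx2 window, and in 16.8% of all windows. The motif AACAAT, a core that SOX proteins bind, occurred in 2 of the 16, from Sox6 and Ibsp, and in 10.7% of all windows. No match of one motif overlapped a match of the other in the windows of members, and a match describes the letters alone.

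Of the 10 members, 5 reached 1 RPKM in either library and 5 did not. The 5 kept were Sox9, Sox5, Runx1, Runx2 and Runx3, all of them transcription factors. More than 2-fold higher in Dnmt1-/- were 2 of them, Runx1 and Sox5, where 8.47% of all genes kept were so called. More than 2-fold lower was 1, Runx3, where 10.9% of all genes kept were. Sox5 passed the minimum only through the Dnmt1-/- library and Runx3 only through Dnmt1+/+, so that each had to differ. The 3 members Sox9, Runx1 and Runx2 reached 1 RPKM in both libraries. As the RNA came from bulk cultures, fewer cells with a transcript and less RNA per cell cannot be told apart.

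**Figure D1:**
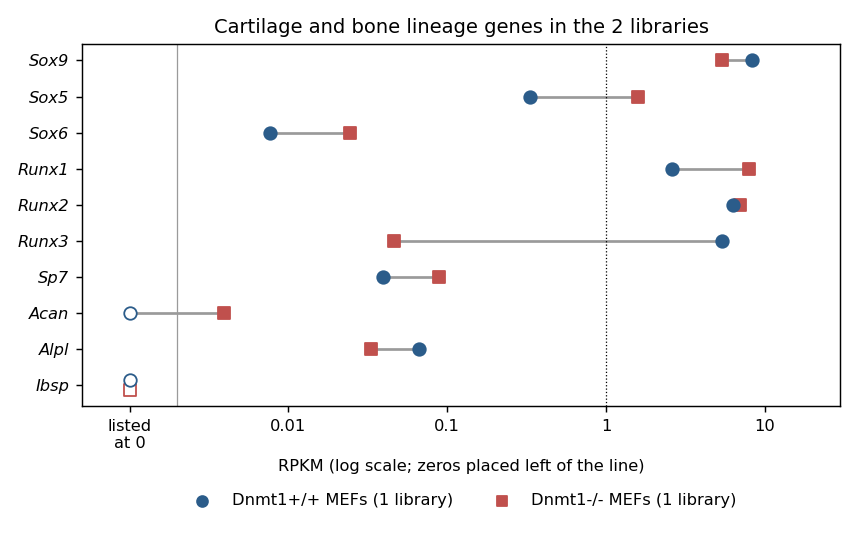
RPKM of each of the 10 members (log axis, with values listed at 0 placed to the left of the grey line) in the Dnmt1+/+ library (circles) and the Dnmt1-/- library (squares), 1 library each. The dotted line is 1 RPKM. Runx3 spans the widest gap, from 5.36 to 0.0466 RPKM, and the symbols of Runx2 nearly coincide.

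Runx3 was at 5.36 RPKM in Dnmt1+/+ and 0.0466 RPKM in Dnmt1-/- MEFs. This is a ratio of 115.1 and a change of -5.22 on the log2(RPKM + 0.1) scale. Ranked among the 14865 named entries of status OK, Runx3 stood above 46.6% of them in Dnmt1+/+ and above 10.8% in Dnmt1-/-. The entry lies on chromosome 4 of mm9 from 134676560 to 134733905, which covers the starts of both promoters shown above.

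Runx1 showed the opposite difference, with 2.60 RPKM in Dnmt1+/+ and 8.02 in Dnmt1-/-. The ratio was 3.08 and the log2 change 1.59. An entry without a symbol has the same coordinates, and its place within them is not known. It was at 5.43 RPKM in Dnmt1+/+ and 4.04 in Dnmt1-/-, a difference in the other direction and within 2-fold. The values given for Runx1 are those of the named entry alone. The entry of Runx1, on chromosome 16 from 92601711 to 92826311, matches the annotated gene and includes the proximal start. The distal start listed, at 92826319, lies just outside it. Runx1 is a regulator of blood cell formation, and markers of blood cells were therefore read beside it. Of 10 such markers 9 were found in the table, and 2 of them reached 1 RPKM, both in Dnmt1-/- only. These were Csf1r, the receptor of a macrophage growth factor, at 0.0702 and 6.08 RPKM, and Cd68, a lysosomal glycoprotein of macrophages, at 0.596 and 3.63 RPKM. The defining markers Ptprc, Laptm5, Tyrobp and Gata1 were listed at 0 in both libraries, while Itgam at 0.0186 and Vav1 at 0.00390 RPKM were found in the Dnmt1-/- library alone. Coro1a, the remaining one, was at 0.0877 and 0.310 RPKM. The summed RPKM of the 9 markers was 0.754 in Dnmt1+/+ and 10.04 in Dnmt1-/-. Most of it came from Csf1r and Cd68, which reached 1 RPKM in Dnmt1-/- alone, so nothing is read from the sum.

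Runx2, the RUNX gene that commits cells to bone, had 6.33 RPKM in Dnmt1+/+ and 7.03 in Dnmt1-/-, a log2 change of 0.15. It was the RUNX gene with the highest value in Dnmt1+/+, and Runx1 had the highest in Dnmt1-/-. The locus of the Runx2 entry, on chromosome 17 from 44740950 to 45256233, is shared with Supt3h, a gene on the opposite strand, which was at 23.8 and 30.7 RPKM. Whether strand was used in counting is not given in the sources used here. The value of Runx2 is therefore uncertain where the genes overlap. The annotated Runx2 gene runs from 44632936 to 44951746, so the entry misses its 3′ part and extends past its 5′ end.

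Added together, the named entries of the 3 RUNX genes had 14.3 RPKM in Dnmt1+/+ and 15.1 in Dnmt1-/-. Entries without a symbol at Runx1 and Runx2 were left out, and the sum carries the uncertainty of the Runx2 value. The makeup of this sum differed between the libraries. Runx3 made up 37.5% of it in Dnmt1+/+ and 0.309% in Dnmt1-/-, while Runx1 made up 18.2% and 53.1%. Runx2 held 44.3% and 46.6%. The partner gene Cbfb was at 56.7 RPKM in Dnmt1+/+ and 54.6 in Dnmt1-/-, above the RUNX sum in both libraries.

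**Figure D2:**
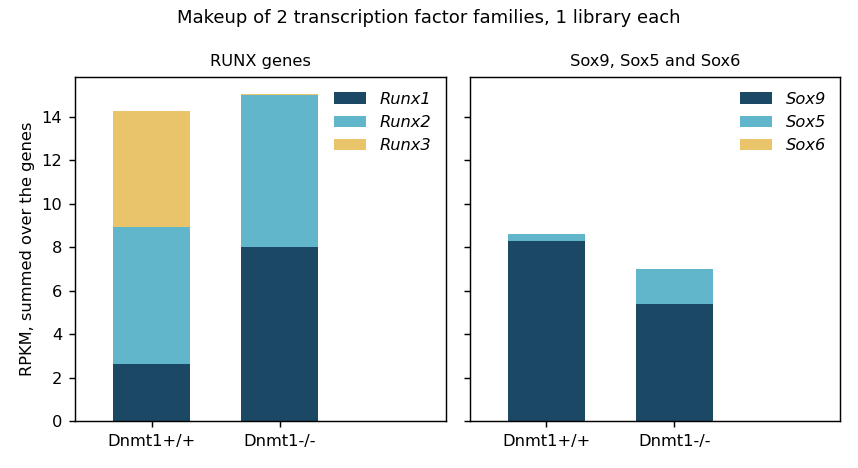
RPKM of Runx1, Runx2 and Runx3 (left) and of Sox9, Sox5 and Sox6 (right), stacked within each library, 1 library per genotype. The RUNX sums of 14.3 and 15.1 RPKM are made up differently, and Sox9 is the largest block of both SOX sums.

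Sox9 was the SOX member with the highest level in both libraries, at 8.28 RPKM in Dnmt1+/+ and 5.41 in Dnmt1-/-. Its log2 change was -0.61, and it was within 2-fold. Sox9 lies on chromosome 11, plus strand, from 112643514 to 112649071.

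Sox5 was at 0.332 RPKM in Dnmt1+/+ and 1.58 in Dnmt1-/-, a ratio of 4.76 and a log2 change of 1.96. With a pseudocount of 1 in place of 0.1 its log2 change was 0.96 and it was no longer past 2-fold. The entry runs on chromosome 6 from 143781349 to 144158078 and covers part of the annotated gene, which lies on the minus strand with its 3′ end at 143776945 and its 5′ end at 144730497. Sox6, its closest relative among the members, was at 0.00762 RPKM in Dnmt1+/+ and 0.0246 in Dnmt1-/-, far under the minimum of 1 in both.

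Taking Sox9, Sox5 and Sox6 together, the sum was 8.62 RPKM in Dnmt1+/+ and 7.02 in Dnmt1-/-. Sox5 made up 3.85% of it in Dnmt1+/+ and 22.6% in Dnmt1-/-. Sox9 made up 96.1% and 77.1%, so it held most of this sum in both libraries.

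Sp7, the factor that acts after Runx2 in bone formation, was at 0.0392 RPKM in Dnmt1+/+ and 0.0887 in Dnmt1-/-. Alpl, which encodes the alkaline phosphatase that frees phosphate for mineral, was at 0.0664 and 0.0332 RPKM. Acan, which encodes the large proteoglycan of cartilage, had the status NOTEST and was listed at 0 in Dnmt1+/+ and at 0.00395 RPKM in Dnmt1-/-. Ibsp, which encodes bone sialoprotein, also had the status NOTEST and was listed at 0 in both. None of these 4 genes came near 1 RPKM in either library. They were at or near 0 while Sox9 and Runx2 were above 5 RPKM in both. The table holds no read counts, so the precision behind such low values is unknown and no order among them is read.

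By level in the Dnmt1+/+ library, the members above 1 RPKM ran from Sox9 through Runx2 and Runx3 to Runx1. In Dnmt1-/- the order was Runx1, Runx2, Sox9 and Sox5. Without replicates it is not known which neighbours in these orders differ.

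**Figure D3:**
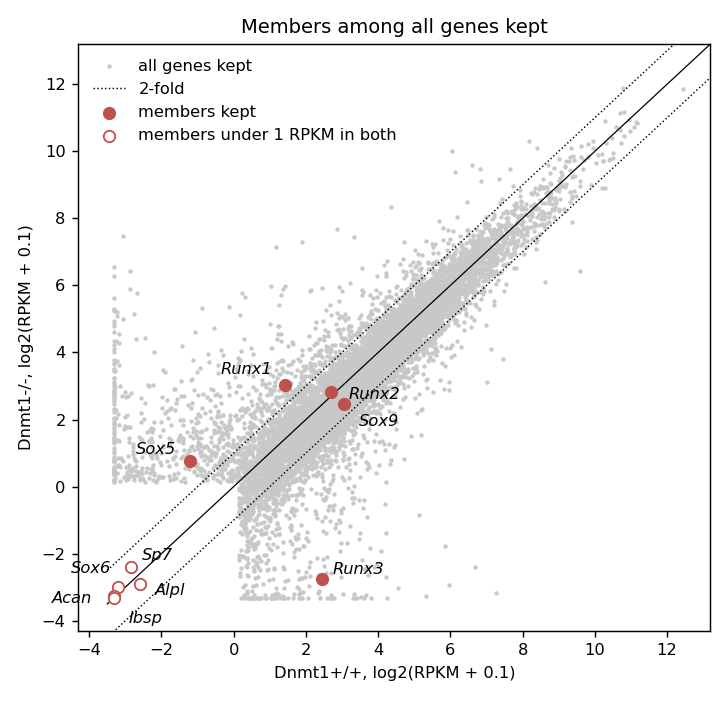
Level in Dnmt1-/- (y axis) against Dnmt1+/+ (x axis), both as log2(RPKM + 0.1), for the 11244 genes kept (grey) and the 10 members (red, filled for the 5 kept and open for the 5 under 1 RPKM in both libraries). Dotted lines mark 2-fold; Runx3 lies far below them, Runx1 and Sox5 above, and Sox9 and Runx2 between.

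Relatives of the members were read to see which genes of each family these cells used. Among the SOX genes outside the members, Sox4, Sox11 and Sox12 reached 1 RPKM, which are the group known as SOXC. Sox4 had 2 entries, at 13.8 and 16.02 RPKM and at 3.87 and 5.55 RPKM in Dnmt1+/+ and Dnmt1-/-. Sox11 was at 9.86 and 9.59 RPKM. Of these, Sox12 was past 2-fold, with 15.3 RPKM in Dnmt1+/+ and 2.88 in Dnmt1-/-, a log2 change of -2.37. Under 1 RPKM in both libraries, Sox7 was at 0.505 and 0.0449. The closest relatives of Sox9 were low, with Sox8 at 0.248 and 0.0515 RPKM and Sox10 at 0.00895 and 0. Sox13, which forms the SOXD group with Sox5 and Sox6, was listed at 0 in Dnmt1+/+ and was at 0.0268 RPKM in Dnmt1-/-. Of the SP relatives of Sp7, Sp4 was past 2-fold, at 1.01 and 0.438 RPKM. Vcan, the lectican of loose connective tissue and a relative of Acan, was at 35.7 RPKM in Dnmt1+/+ and 22.9 in Dnmt1-/-. The lecticans of brain were low, with Ncan listed at 0 in both libraries and Bcan at 0 and 0.0147 RPKM. The other 3 alkaline phosphatase genes, Alpi, Akp3 and Alppl2, were listed at 0 in both. Of the 30 relatives 28 were found, with 29 entries, and 9 entries were kept, of which 2 were more than 2-fold lower and 0 higher, beside 10.9% lower and 8.47% higher of all genes kept. Sp4, 1 of these 2, reached 1 RPKM in Dnmt1+/+ alone.

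Downstream of Sox9 and its partners stand the genes of cartilage matrix. Of 18 such genes, 15 stayed under 1 RPKM in both libraries and 7 were listed at 0 in both. Of the 3 kept, 2 were more than 2-fold lower and 1 was higher, but Col2a1 reached 1 RPKM only in Dnmt1+/+ and Comp only in Dnmt1-/-, so these had to differ and nothing is read from the count. For all genes kept, 19.4% were past 2-fold in one direction or the other. Col2a1, the main collagen of cartilage, was at 6.40 RPKM in Dnmt1+/+ and 0.0661 in Dnmt1-/-, a log2 change of -5.29. Col11a1, a fibrillar collagen that joins it in cartilage, was at 33.3 and 4.45 RPKM, a change of -2.88. In the other direction Comp, which encodes a matrix protein of cartilage and tendon, was at 0.344 RPKM in Dnmt1+/+ and 4.96 in Dnmt1-/-, a change of 3.51.

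Genes of the hypertrophic cartilage that precedes bone were low as well, with 5 of 6 under 1 RPKM in both libraries. The one kept was Mef2c, a transcription factor of hypertrophic cells that is also used in muscle, at 3.95 RPKM in Dnmt1+/+ and 2.44 in Dnmt1-/-. Without the minimum of 1 RPKM, 2 genes were more than 2-fold higher, as were 9.92% of all genes under that rule. These were Mmp13, a collagenase, at 0.0103 and 0.747 RPKM, and Col10a1, the collagen of hypertrophic cartilage, at 0.0317 and 0.468 RPKM, both named after their values were seen.

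Bone matrix and mineralisation genes were better represented, and several of them are also made by fibroblasts in general. Of 24 genes 16 were kept, with 3 more than 2-fold higher and 6 lower. These are 18.8% and 37.5% of the 16, where 8.47% and 10.9% of all genes kept were so called, and 1 of the called genes, Phex, reached 1 RPKM in Dnmt1+/+ alone. The median log2 change of the 16 was -0.61, against -0.14 for all genes kept. Col1a1, a chain of the collagen of bone and skin, had the highest level of the list in Dnmt1+/+, at 1448 RPKM, with 897.7 in Dnmt1-/-. Sparc, a collagen-binding protein of the bone matrix, had the highest in Dnmt1-/-, at 918.4 RPKM, with 897.3 in Dnmt1+/+.

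The 3 higher genes of the list were Enpp1, Phospho1 and Omd. Enpp1, which makes the mineralisation inhibitor pyrophosphate, was at 2.44 RPKM in Dnmt1+/+ and 11.5 in Dnmt1-/-. Phospho1, a phosphatase that starts mineral in matrix vesicles, was at 4.12 and 17.0 RPKM. Omd, a proteoglycan of the bone matrix, was at 3.63 and 8.77 RPKM. Their log2 changes were 2.19, 2.02 and 1.25, so genes known to restrain and to start mineral were both among the higher ones.

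Among the 6 lower genes the largest changes were those of Postn, Phex and Tnfrsf11b. Postn, a matrix protein of the periosteum and other connective tissue, was at 176.6 RPKM in Dnmt1+/+ and 13.7 in Dnmt1-/-. Phex, an endopeptidase of osteoblasts, was at 1.68 and 0.146 RPKM. Tnfrsf11b, which encodes osteoprotegerin, an inhibitor of osteoclast formation, was at 16.2 and 2.40 RPKM. The log2 changes were -3.67, -2.86 and -2.70. The late osteoblast and osteocyte genes Bglap, Bglap2, Dmp1, Mepe and Sost stayed under 0.1 RPKM in both libraries, as did Alpl and Ibsp. No marker of osteoclasts, out of 7, reached 1 RPKM in either library.

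Of 17 skeletal transcription factors outside the members, 13 were kept, with 2 more than 2-fold higher and 4 lower. These are 15.4% and 30.8% of the 13, beside 8.47% and 10.9% of all genes kept, and 2 of the lower genes, Dlx5 and Dlx6, reached 1 RPKM in Dnmt1+/+ alone. Their median log2 change was -0.18, close to that of all genes kept. Twist2 and Prrx2, factors of mesenchymal progenitors, were the higher ones, at 8.96 and 22.7 RPKM for Twist2 and 9.33 and 21.5 for Prrx2. Dlx5, a homeobox gene that promotes bone formation, was at 3.56 RPKM in Dnmt1+/+ and 0.0503 in Dnmt1-/-. Its neighbour Dlx6 was at 1.34 RPKM in Dnmt1+/+ and was listed at 0 in Dnmt1-/-. Osr1, a factor of connective tissue progenitors, was at 9.74 and 2.83 RPKM. Atf4, which acts in osteoblasts and in stress responses, had the highest level of the list in both libraries, at 405.3 and 230.2 RPKM.

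Of 14 genes for partners and modulators of RUNX proteins, 13 were kept and 12 of these stayed within 2-fold. Cbfb had the highest level of the list in Dnmt1+/+ and Yap1, a coactivator of the Hippo pathway, in Dnmt1-/-, where Yap1 was at 61.5 RPKM against 40.5 in Dnmt1+/+. The median log2 change of the 13 was -0.26, and 1 of 13 past 2-fold compares with 19.4% of all genes kept.

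**Figure D4:**
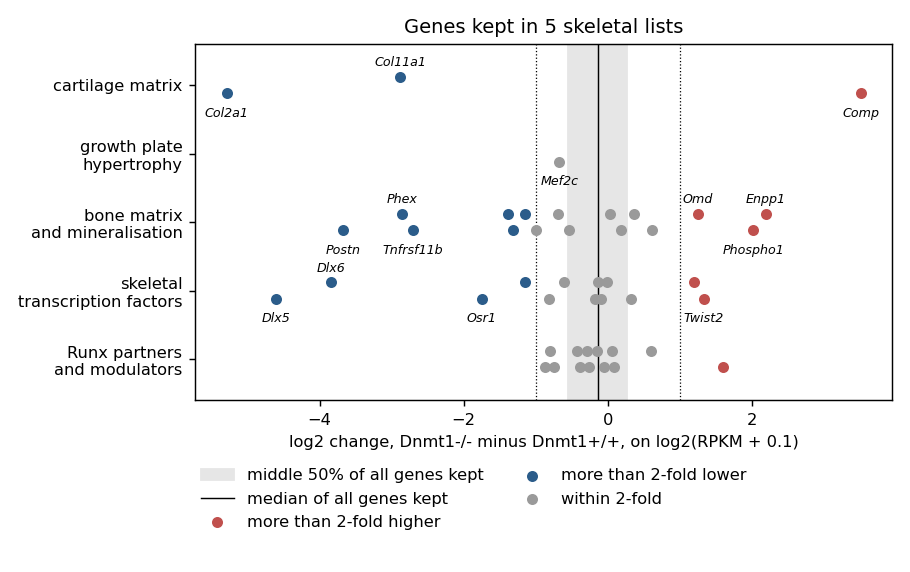
Log2 change from Dnmt1+/+ to Dnmt1-/- (x axis) of each kept gene in 5 lists of skeletal genes, with 3 cartilage matrix genes and 1, 16, 13 and 13 genes in the other lists from top to bottom. Points are coloured by whether they are past 2-fold (dotted lines), the grey band spans the middle 50% of all genes kept, from -0.56 to 0.27, and 12 of the 13 points of the RUNX partners lie within 2-fold.

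Other cell types were read through markers of the cultures. Of 7 endothelial and 6 glial markers, 0 reached 1 RPKM in either library. Among epithelial markers a joint entry of Krt14 and Krt17 was the 1 that reached 1 RPKM, at 0.0349 and 1.46 RPKM. Below that level Krt8 and Krt18 were higher in Dnmt1-/-, while Cdh1, Epcam and Krt5 were lower, with Cdh1 at 0.203 and 0.0700 RPKM. Of 7 muscle markers, Acta1 was at 28.8 and 42.8 RPKM, Tnnt1 at 1.04 and 1.57, and Myf5 at 0.106 and 3.28, while Myod1 and Myog were at most at 0.0489 RPKM. Des was lower in Dnmt1-/-, at 0.318 and 0.0780 RPKM, and Myh3 was at 0.00870 and 0.0706. The part of other cell types in the values of Runx1, Runx3 and Sox5 was not tested.

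The nearest kept genes on each side of the members were read to see how far along the chromosome a difference reached. Runx3 lies between Syf2, a splicing factor gene at 33.7 and 31.9 RPKM, and Clic4, a chloride channel gene at 83.3 and 57.7 RPKM. Both stayed within 2-fold, and Clic4 lies 36.0 kb from Runx3. Beside Runx1, Rcan1 had 8.41 RPKM in Dnmt1+/+ and 9.89 in Dnmt1-/-, and Setd4 1.73 and 1.24. The neighbours of Sox5 were 624.3 and 784.3 kb away, with Etnk1 at 17.8 and 16.1 RPKM and Bcat1 at 26.2 and 10.4. Syf2 lies 183.1 kb from Runx3, and Rcan1 and Setd4 lie 135.3 and 757.4 kb from Runx1. None of these 6 genes was past 2-fold in the direction of its member. Nearer entries without a symbol, past Runx3 and at the 3′ end of Sox5, did differ in the member's direction, as described below. The one at Runx1 did not.

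Members that were nearly silent lay beside genes that were not. Alpl, at under 0.1 RPKM in both libraries, lies 11.9 kb from Rap1gap, which was at 0.664 RPKM in Dnmt1+/+ and 4.25 in Dnmt1-/-. Sp7 lies 40.03 kb from Sp1, at 16.7 and 16.1 RPKM. Ibsp stands in a cluster of bone matrix genes on chromosome 5 with Dmp1, Mepe and Spp1. Of these Spp1, which encodes osteopontin and is made by many cell types, was at 131.0 RPKM in Dnmt1+/+ and 168.7 in Dnmt1-/-, 123.6 kb from Ibsp. Of the 20 nearest genes in all, 4 were more than 2-fold higher and 3 lower, where 8.47% and 10.9% of all genes kept were. Of those called, Kcnj2, Rap1gap and Sparcl1 reached 1 RPKM in Dnmt1-/- alone.

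**Figure D5:**
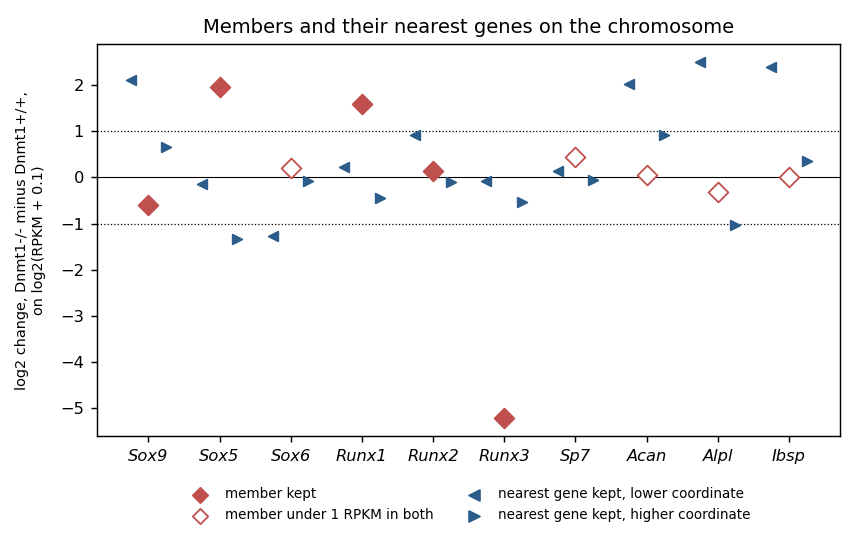
Log2 change from Dnmt1+/+ to Dnmt1-/- (y axis) of each member (diamonds, open where the member was under 1 RPKM in both libraries) and of the nearest kept gene at lower and at higher coordinates (triangles). Dotted lines mark 2-fold; the neighbours of Runx3 and Runx1 lie within them while these members lie outside.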

How the data were processed

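Strand-specific mRNA-seq of 50 bp single-end reads was measured in 1 library each of Dnmt1+/+ and Dnmt1-/- MEFs. The authors used TopHat for mapping to mm9 and Cufflinks for assembly, and deposited the RPKM values of Cuffdiff, 1 column per library, with a status per entry. Versions, and any scaling of the libraries beyond mapped reads, are not given in the sources used here. The paper lists the mapped reads of each library. The files hold no read counts per entry, so the number of reads behind a value is not given.

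Members were matched by symbol at any status. From the RPKM, log2(RPKM + 0.1) was differenced between libraries, and calls used status OK, a symbol, 1 RPKM or more in one library or the other, and 2-fold. The calls were tested on simulated data. These held no noise between the libraries, so the share of false calls in the real data is not known. Starts were moved by 1 base to count from 1, since 9508 starts then met a GENCODE transcript start on NCBI37, against 725 as written. The RefSeq promoter table held 8 of the 10 members, without Sox9 and Sp7.

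The members and lists were chosen with earlier results of these data known. The genes named are all members, the 3 largest rises and falls past 2-fold and the highest level in each skeletal list, relatives past 2-fold or closest to a member, markers of other cell types at 1 RPKM or more, and nearest neighbours. Values of 1 gene on a skeletal list are not reported here. Other relatives kept, and genes at or near 0, were named after their values were seen. The entries without a symbol were chosen after the table was seen. The alternatives were pseudocounts of 1 and 0.01, no minimum RPKM, a mean RPKM of at least 1, subtraction of the median change and a 1.5-fold threshold. Python 3.11.15, numpy 2.4.6, pandas 2.3.3 and matplotlib 3.10.9 were used.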

Additional observations from a re-analysis of the deposited data

Results flagged for a closer look

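Entries without a gene symbol were not used in the comparisons above, and 4 of the 12 that lie at members were more than 2-fold higher in Dnmt1-/- than in Dnmt1+/+. Of all 8014 entries without a symbol that reached 1 RPKM in either library, 19.3% were so called and 26.9% were lower. At Sox5 a stretch of 178 bp near the annotated 3′ end, on chromosome 6 from 143778376 to 143778553, had 12.5 RPKM in Dnmt1-/- and was listed at 0 in the Dnmt1+/+ library. A second stretch there, of 368 bp, had 0.51 and 1.51 RPKM. Both lie inside the annotated Sox5 gene but outside the Sox5 entry, and both were higher in Dnmt1-/-, as that entry was, and both reached 1 RPKM in Dnmt1-/- alone. At the locus shared by Runx2 and Supt3h, 7 such entries had the same coordinates as Runx2, so their place within it is not known. Of these, 1 had 6.54 RPKM in Dnmt1+/+ and 42.6 in Dnmt1-/-, and another had 1.54 and 4.37, while 2 were more than 2-fold lower.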

How the results depend on the processing

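The number of members more than 2-fold higher, 2, became 1 with a pseudocount of 1 and 1 where the mean RPKM had to reach 1. Sox5 was lost in both cases, and 6.96% and 7.43% of all genes were higher under these rules. The number lower, 1, became 2 at a 1.5-fold threshold, where Sox9 joined Runx3 and 23.7% of all genes kept were lower. Among hypertrophic cartilage genes the number changed, 0, became 2 without the minimum RPKM and 1 at 1.5-fold. Of all genes, 21.1% and 37.8% were changed under these rules. Among RUNX partners, 1 of 13 became 5 of 13 at 1.5-fold, where 37.8% of all genes kept were past that threshold. The other 36 of 42 recomputed counts were within 1.5 times their first value. No called member changed direction under the 6 alternatives, but only subtraction of the median change could reverse a sign. That median, -0.14, was too small to do so for these members, so nothing is read from their direction. No paired analysis was possible because each genotype has 1 library, and for the same reason no library could be left out. The RPKM carry no counts, which limits what can be read from values under 1.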

Other observations

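A further entry without a symbol, 235 bp long, lies 2555 bp past the 3′ end of Runx3 on chromosome 4, from 134736460 to 134736694. It was at 4.34 RPKM in Dnmt1+/+ and 0.396 in Dnmt1-/-, a log2 change of -3.16, and it was the one such entry within 5 kb outside the members. It reached 1 RPKM in Dnmt1+/+ alone. Of all entries without a symbol that reached 1 RPKM in either library, 26.9% were more than 2-fold lower. Of the 9 entries without a symbol at Runx2, 2 lie near its annotated 3′ end, outside the Runx2 entry. They were at 1.53 and 2.47 RPKM and at 10.8 and 21.1 RPKM in Dnmt1+/+ and Dnmt1-/-.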
